A study of Mus musculus with 4 samples.

Results

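The gene set described here holds 9 genes that led cluster 6 of the authors' clustering of CD4 T cells sorted from mouse mesenteric lymph nodes: Gsta4, Gsto1, Capn3, Cybb, Bmyc, Pou2f2, H2-Oa, Zbtb20 and Abcg1. They are 9 of the 13314 genes in the deposited table, and all 9 had enough counts to be measured. They were chosen by their UMI levels, which were high in cluster 6 against the other clusters, so their levels across clusters describe that choice and no test is made of them. Cluster 6 held 1598 of the 16948 analysed cells.

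The cells came from male mice of the Foxp3CNS1- and Foxp3GFP strains that were raised germ-free. The 4 groups were colonized Foxp3CNS1-, germ-free Foxp3CNS1-, colonized Foxp3GFP and germ-free Foxp3GFP mice. The colonized mice had been given SPF (specific-pathogen-free) fecal microbiota, and their cells were taken 9 days later. Each group gave 1 library, made from the pooled lymph nodes of 3 mice with GFP-positive and GFP-negative CD4 T cells sorted in equal parts, so the values have no replicate and the share of a cluster can be set by the sort. The labels used here give neither age nor genetic background. CNS1 is an intronic enhancer of Foxp3, and Foxp3CNS1- mice lack it.

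Foxp3 is the transcription factor that defines regulatory T (Treg) cells, which restrain immune responses. Treg cells arise in the thymus, or from conventional CD4 T cells in peripheral tissues such as the gut and its draining lymph nodes, and the CNS1 enhancer takes part in the second route. The 9 genes belong to no single pathway. Gsta4 and Gsto1 encode glutathione transferases, enzymes that use the thiol glutathione on reactive compounds. Gsta4 acts on aldehydes from lipid peroxidation, and Gsto1 has thiol transfer and dehydroascorbate reductase activity. Capn3 is a calcium-dependent protease best known from skeletal muscle, and Cybb is the catalytic subunit of the phagocyte NADPH oxidase, which makes superoxide. Bmyc is a relative of Myc that lacks the DNA-binding end of the protein. Pou2f2 encodes the octamer-binding factor OCT2, best known in B cells, and Zbtb20 a zinc finger repressor. H2-Oa is the alpha chain of the H2-O heterodimer, which modulates peptide loading onto MHC class II. Abcg1 is a transporter that exports cholesterol and a target of the liver X receptors.

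All levels are in CPM, the UMIs of a gene summed over the cells named, per 1000000 UMIs of all genes in those cells. Intervals are exact 95% intervals for counting error only, and they do not cover differences between mice, libraries or cells. The libraries held 5406, 3533, 4030 and 3979 analysed cells in the order of groups above. They held 17929193, 9360112, 13437705 and 10746648 UMIs. Cluster 6 had 432, 372, 373 and 421 cells, or 7.99%, 10.5%, 9.26% and 10.6% of each library. Treg markers were present in cluster 6 in all 4 libraries, with 12 of 12 listed genes in the table detected and a summed level of 3820 to 4168 CPM. The same list had 4908 CPM in clusters 0 and 3, the other clusters rich in Treg markers, and 756 CPM in clusters 1 and 2, which carried naive T cell markers. Summed naive markers had 1222 to 1550 CPM in cluster 6, against 4038 CPM in clusters 1 and 2. Foxp3 had 115, 133, 141 and 147 CPM in cluster 6 of the 4 libraries, and since 3′ counts do not read the CNS1 deletion they do not check the genotype. Of 314 cells, the barcode also occurred in another library. Cells with an Hspa1a or Hspa1b UMI, heat shock genes, made up 26 and 18 of the cluster 6 cells in colonized Foxp3CNS1- and Foxp3GFP mice, and 0 and 1 in the germ-free mice of those strains.

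Gsta4 was the gene that set cluster 6 apart most. It had 61.5 CPM in cluster 6 (54.7 to 68.9), against 27.8 in cluster 0, 21.5 in cluster 3, 20.2 in cluster 4 and 4.04 to 12.1 in clusters 1, 2, 5, 7 and 8. Cluster 9, with 84 cells, had 0 Gsta4 UMIs. In single libraries the cluster 6 level was 59.0 CPM in colonized Foxp3CNS1-, 69.0 in germ-free Foxp3CNS1-, 57.2 in colonized Foxp3GFP and 62.6 in germ-free Foxp3GFP. Cluster 6 ranked first for Gsta4 in 4 of 4 libraries, and no other cluster's interval overlapped that of cluster 6. The intervals of the next clusters in that order, 0 with 3 and 3 with 4, overlapped each other. Gsta4 lies on chromosome 9 from 78182774 to 78209349 on the plus strand of mm10. It has relatives in the alpha class, and how reads shared between relatives were counted was not given in the sources used here.

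Gsto1, the other transferase, had a similar but flatter pattern. Its level was 54.4 CPM in cluster 6 (48.0 to 61.4), 41.8 in cluster 8, 30.8 in cluster 0, and 12.1 to 24.4 in clusters 1 to 5 and 7. The cluster 6 libraries had 54.6 CPM in colonized Foxp3CNS1-, 47.4 in germ-free Foxp3CNS1-, 58.0 in colonized Foxp3GFP and 56.2 in germ-free Foxp3GFP. Cluster 6 was first in 3 libraries and second in germ-free Foxp3CNS1-. The intervals of all other clusters lay below that of cluster 6, and cluster 9 had 0 UMIs, as for Gsta4.

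Capn3 was also highest in cluster 6 in 4 of 4 libraries. It had 82.9 CPM there (74.9 to 91.4), 57.4 in cluster 0, 52.6 in cluster 3 and 11.0 to 40.8 elsewhere. Per library the cluster 6 values were 64.2, 94.7, 72.4 and 104 CPM in colonized Foxp3CNS1-, germ-free Foxp3CNS1-, colonized Foxp3GFP and germ-free Foxp3GFP. Both germ-free libraries stood above both colonized ones. Capn3 (chromosome 2, 120456019 to 120504913, plus strand) overlaps Ganc on the same strand, so part of its counts could belong to either gene.

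The oxidase subunit Cybb did not peak in cluster 6. It had 48.6 CPM in cluster 6 (42.6 to 55.2), 73.2 in cluster 3 and 33.5 in cluster 0, and 2.33 and 1.58 in the naive marker clusters 1 and 2. Its cluster 6 values were 54.6, 49.4, 41.9 and 48.1 CPM in the order of libraries above, and the rank of cluster 6 was 2 or 3 in each library. Cybb was thus nearly absent from the naive marker clusters, and its level in cluster 3 stood above that in cluster 6.

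The regulators Bmyc and Pou2f2 were shared between clusters 6 and 3. Bmyc had 157 CPM in cluster 6 (146 to 168), 143 in cluster 3, 94.1 in cluster 0 and 91.7 in cluster 8, and the intervals of clusters 6 and 3 overlapped. Its per-library values in cluster 6 were 129, 175, 143 and 185 CPM. Pou2f2 had 202 CPM in cluster 6 (190 to 216), 209 in cluster 3, 220 in the small cluster 9 and 140 in cluster 0, with no gap between the intervals of clusters 6, 3 and 9. Its cluster 6 values were 173 CPM in colonized Foxp3CNS1-, 184 in germ-free Foxp3CNS1-, 155 in colonized Foxp3GFP and 297 in germ-free Foxp3GFP. The germ-free Foxp3GFP library stood alone, and the other 3 were close. Bmyc is overlapped by A230005M16Rik and Pou2f2 by D930028M14Rik on the opposite strand. Whether strand was used in the counting was not given in the sources used here, so these levels are uncertain to that extent, and Gsto1 has the same limit through Cfap43.

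H2-Oa, like Gsta4, was highest in cluster 6. It had 40.5 CPM in cluster 6 (35.0 to 46.6), 35.2 in cluster 3 and 11.5 in each of clusters 1 and 2, and its gene overlaps BC051537 on the opposite strand. Zbtb20 had 83.9 CPM in cluster 6 (75.9 to 92.5), 79.5 in cluster 3, 64.9 to 67.9 in clusters 0, 1, 2 and 4, and 15.5 in cluster 8. Naive marker clusters thus carried Zbtb20 at levels close to cluster 0. Abcg1 had 48.6 CPM in cluster 6 (42.6 to 55.2), 73.5 in cluster 4, 65.5 in cluster 7 and 11.7 in cluster 8, so it was highest outside cluster 6. Across the 9 genes, cluster 6 was first in the pooled sums for 6 (Gsta4, Gsto1, Capn3, Bmyc, H2-Oa and Zbtb20). For 4 of these another cluster's interval reached into that of cluster 6. In the single libraries, in the order above, cluster 6 ranked 2, 1, 1 and 1 for Bmyc and 1, 2, 1 and 1 for H2-Oa. Its ranks were 2, 2, 4 and 1 for Zbtb20, 2, 2, 3 and 1 for Pou2f2, and 6, 3, 4 and 3 for Abcg1.

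**Figure D1:**
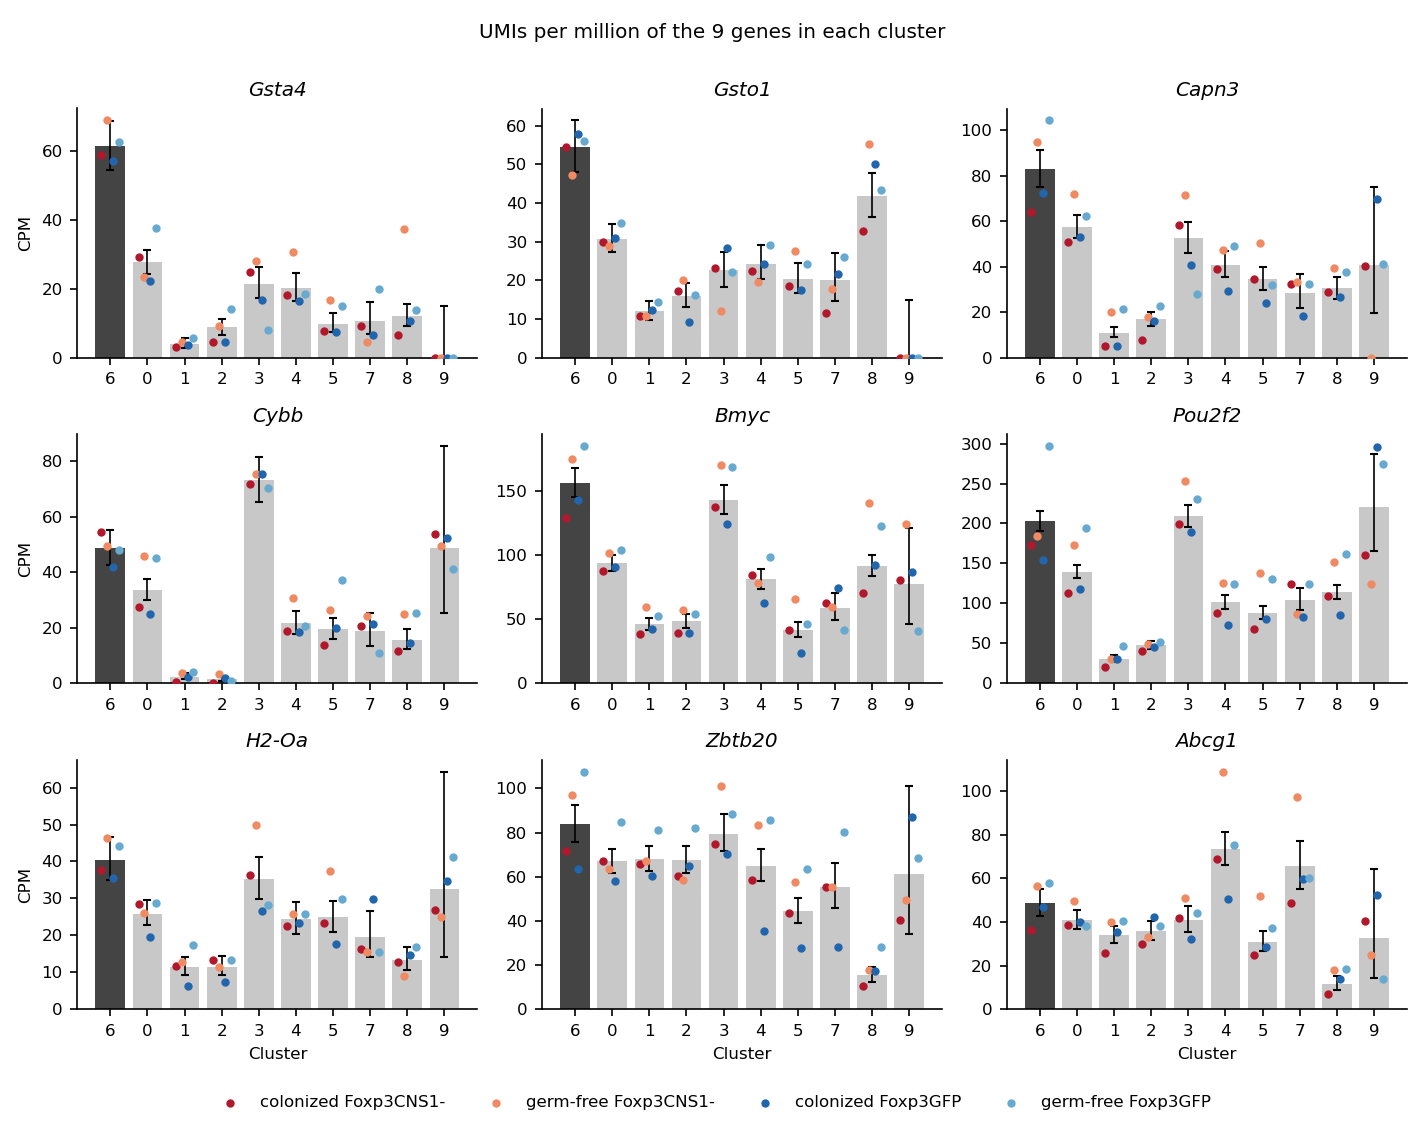
CPM of each of the 9 genes in the authors' clusters 6 and 0 to 9. Bars give the sum over all libraries with its exact 95% interval, points the 4 libraries, and the dark bar is cluster 6. Gsta4 and Gsto1 stand highest in cluster 6, Cybb in cluster 3 and Abcg1 in cluster 4.

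Set against all other clusters, 9 of 9 genes were higher in cluster 6 and 7 passed a 2-fold ratio. Over all 11047 genes with at least 50 UMIs, 50.3% were higher and 1.48% were 2-fold higher. Since the genes were picked for this contrast, nothing is read from that gap. Log2 ratios were 2.07 for Gsta4, 1.29 for Capn3, 1.23 for Gsto1, 1.17 for Cybb, 1.08 for Bmyc, 1.03 for Pou2f2, 1.01 for H2-Oa, 0.50 for Zbtb20 and 0.31 for Abcg1. H2-Oa and Pou2f2 were the members just inside the 2-fold line, and Zbtb20 was the first outside it.

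Against clusters 0 and 3 alone, which also carry Treg markers, the differences were smaller. Gsta4 had 61.5 CPM in cluster 6 against 25.7 in clusters 0 and 3, a log2 ratio of 1.26 (1.03 to 1.49), and it was the only one of the 9 past a 2-fold ratio. The log2 ratio was between 1.06 and 1.48 for Gsta4 in the single libraries. Gsto1 had 54.4 against 28.1 CPM (0.95, 0.72 to 1.19), and Capn3 had 82.9 against 55.9 CPM (0.57, 0.39 to 0.75). The ratios of Bmyc, H2-Oa, Pou2f2, Abcg1 and Zbtb20 were 0.51, 0.48, 0.32, 0.24 and 0.24. Cybb had 48.6 CPM in cluster 6 against 46.6 in clusters 0 and 3, and its interval held 0 (0.06, -0.16 to 0.28). Cybb was higher in cluster 6 in 1 of 4 libraries, so its direction here rests on the pooled sums. In this contrast 9 of 9 genes were higher, where 35.9% of 9623 genes were, and 1 was 2-fold higher, where 0.229% were. The choice of the genes drew on the same cells.

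Markers of B cells were read beside the members, since Pou2f2, H2-Oa and Cybb are known from B and myeloid cells. In cluster 6, 13 of 15 listed B cell genes had a UMI, with Pax5 and Fcrla at 0, and the list summed to 961 to 1067 CPM per library. Ighm supplied 4515 of its 4797 UMIs in that cluster and was seen in 1100 of the 1598 cells. The list had 1330 CPM in clusters 0 and 3 and 312 CPM in clusters 1 and 2. Of the macrophage and monocyte list, 6 of 7 genes in the table had a UMI in cluster 6, with Tyrobp at 0, and the sum was 413 to 444 CPM, mostly from Ctss and Cst3. Cells with a UMI of a listed B cell gene other than Ighm, Ighd, Cd79b and Bank1, or of Lyz2, Csf1r, Itgam or Itgax, made up 4.17%, 1.88%, 2.41% and 5.46% of cluster 6 in colonized Foxp3CNS1-, germ-free Foxp3CNS1-, colonized Foxp3GFP and germ-free Foxp3GFP. Without those cells the log2 ratio of cluster 6 over the other clusters was 1.18 for Cybb, 1.05 for Pou2f2 and 1.04 for H2-Oa, against 1.17, 1.03 and 1.01 with them. Cells with Ighm, Ighd, Cd79b or Bank1 UMIs stayed in, and the part of those transcripts in the ratios was not tested.

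A UMI of Pou2f2 was seen in 37.2% of cluster 6 cells and one of Bmyc in 30.8%, and the other genes were sparser. A Gsta4 UMI was seen in 11.2% of cluster 6 cells, with a median of 2649 UMIs per cell, and in 0.763% of cluster 1 cells, with a median of 2855. After thinning each cell to 1500 UMIs the shares were 6.58% in cluster 6 (5.37 to 7.98), 3.39% in cluster 0, 3.36% in cluster 3 and 0.406% in cluster 1 (0.203 to 0.725). Cybb was seen in 6.65% of thinned cluster 6 cells and in 8.31% of cluster 3 cells, against 0.443% in cluster 1. Zbtb20 and Abcg1 differed less between these clusters: Zbtb20 was seen in 12.1% of thinned cells in cluster 6 and 9.08% in cluster 1, and Abcg1 in 6.996% and 5.50%.

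Counted together, the 9 genes were denser in cluster 6 than in the other clusters. A thinned cluster 6 cell held a UMI of 1.01 of the 9 genes on average, with 140 of 1598 cells too shallow to enter. The mean was 0.854 in cluster 3, 0.681 in cluster 0 and 0.308 in cluster 1. By library the cluster 6 mean was 0.882 in colonized Foxp3CNS1-, 1.04 in germ-free Foxp3CNS1-, 0.927 in colonized Foxp3GFP and 1.20 in germ-free Foxp3GFP. At least 2 of the 9 genes were seen in 26.8% of thinned cluster 6 cells (24.6 to 29.2). Without thinning the cluster 6 mean was 1.67, against 1.24 in cluster 3 and 1.69 in cluster 8, which holds 640 cells with the most UMIs per cell, so the order of clusters 6 and 8 depends on the thinning.

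**Figure D2:**
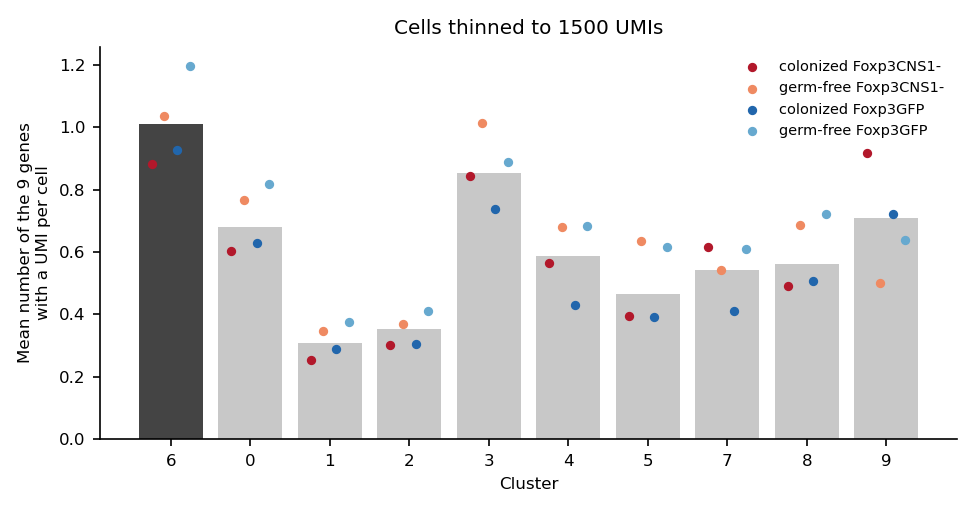
Mean number of the 9 genes with a UMI in a cell, after thinning each cell to 1500 UMIs, by cluster. Bars give all libraries and points single libraries. Cluster 6 stands at 1.01, cluster 3 at 0.854 and cluster 1 at 0.308, and the germ-free libraries lie above the colonized ones of the same strain in cluster 6.

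The upstream sequences of genes high in cluster 6 were read from RefSeq on GRCm38.p6, the assembly behind mm10. The table held 300-base windows for 7 of the 9 genes and 8 starts, and none for Gsta4 or Abcg1. The 250 bases before the start are shown for Gsto1 and Capn3, which follow Gsta4 in the contrast of cluster 6 with clusters 0 and 3, and for Pou2f2, whose level differed most between libraries. The Capn3 and Pou2f2 starts shown lie well inside the annotated genes, which begin at 120456019 for Capn3 and, on the minus strand, at 25179726 for Pou2f2. Which start the cells used is not read by 3′ counts. Capitals mark matches to a searched motif on either strand.
Gsto1, chr19:47854723-47854972, plus strand: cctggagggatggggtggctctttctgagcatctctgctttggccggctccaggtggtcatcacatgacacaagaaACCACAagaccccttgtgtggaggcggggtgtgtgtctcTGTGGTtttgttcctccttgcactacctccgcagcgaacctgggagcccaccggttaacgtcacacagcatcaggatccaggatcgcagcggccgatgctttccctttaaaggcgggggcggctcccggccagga
Capn3, chr2:120476659-120476908, plus strand: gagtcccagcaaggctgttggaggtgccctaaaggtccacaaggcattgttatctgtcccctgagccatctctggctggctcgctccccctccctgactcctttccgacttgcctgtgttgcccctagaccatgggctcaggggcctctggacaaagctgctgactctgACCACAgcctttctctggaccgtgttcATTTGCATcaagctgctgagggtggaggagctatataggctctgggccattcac
Pou2f2, chr7:25132461-25132710, minus strand: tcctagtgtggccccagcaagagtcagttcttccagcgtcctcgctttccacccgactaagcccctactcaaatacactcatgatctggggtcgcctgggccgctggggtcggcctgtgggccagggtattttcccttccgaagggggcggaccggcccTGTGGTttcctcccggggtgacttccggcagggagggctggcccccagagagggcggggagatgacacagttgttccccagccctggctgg
In these sequences the RUNX core TGTGGT, or its reverse complement, occurs at -174 and -135 of Gsto1, at -81 of Capn3 and at -91 of Pou2f2, counted from the start. The octamer ATGCAAAT, the element bound by OCT factors, occurs in reverse at -54 of this Capn3 start and does not overlap the RUNX match.

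RUNX cores were in 5 of the 8 windows, those of Gsto1, Capn3, Cybb, Pou2f2 and Zbtb20, while 16.8% of all 32851 windows of the table hold one. The octamer was in 1 of 8 windows, against 1.74% of all, and the STAT element TTCNNNGAA in the Zbtb20 window alone, against 8.30%. No window held the antioxidant response element TGACNNNGC, the E-box CACGTG, the forkhead element TGTTTAC or the ETS element ACCGGAAGT, which are in 12.4%, 7.15%, 3.65% and 1.10% of all windows. The other Capn3 start and the Bmyc and H2-Oa windows held none of the 7 motifs. A match is a string of letters in the window and shows no binding.

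The authors also deposited a second clustering, with subsets s0 to s9, for 9041 of the analysed cells. Of the cluster 6 cells, 1361 lay in subset s2, which has 1440 cells, and 122 lay in s6. Gsta4 had 59.4 CPM in s2, against 35.4 in s1, 27.9 in s6, 25.7 in s3 and 22.3 in s0. Capn3 followed the same order at the top, with 89.4 CPM in s2 and 65.1 in s1. Other genes were as high or higher elsewhere. Gsto1 had 48.2 CPM in s2 and 67.2 in s6, and Bmyc had 145 in s2, 155 in s6 and 146 in s0. Cybb had 50.9 in s2 and 71.9 in s0, while Pou2f2 had 206 in s2 and 203 in s0. Zbtb20 was at 91.6 CPM in s2 and 18.7 in s6, where Gsto1 and Bmyc were highest. Against all other subsets, 9 of 9 genes were higher in s2 and Gsta4, at 1.53 on the log2 scale, was the only one past 2-fold. Of 10417 genes 39.0% were higher and 0.624% were 2-fold higher, and the subsets were again made from these cells.

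The next contrast used a single gene outside the set, Foxp3. The 9 genes were picked for a cluster with Foxp3 at 134 CPM, against 17.5 and 32.8 CPM in clusters 1 and 2, so this contrast over all cells is not independent of that choice. Cells with at least 1 Foxp3 UMI were compared with cells without one, inside each library. There were 3118 cells with a Foxp3 UMI and 13830 without, with medians of 2721 and 2552 UMIs per cell. A cell without a Foxp3 UMI can still express Foxp3: only 25.7%, 22.0%, 33.0% and 31.4% of cluster 6 cells had one, in colonized Foxp3CNS1-, germ-free Foxp3CNS1-, colonized Foxp3GFP and germ-free Foxp3GFP.

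Over all analysed cells, 8 of the 9 genes were higher in cells with a Foxp3 UMI, where 59.1% of 11047 genes were, and Gsta4 was the only one past 2-fold, where 2.34% were. Gsta4 had 34.4, 39.0, 27.0 and 36.3 CPM in cells with a Foxp3 UMI of the 4 libraries in the order above, against 13.1, 20.1, 11.96 and 18.8 CPM in cells without. The values with a Foxp3 UMI lay above those without one in every library, and the pooled levels were 33.3 and 15.3 CPM, a log2 ratio of 1.12 (0.93 to 1.31). Gsto1 had 42.4 CPM with and 22.0 CPM without (0.95), and Cybb had 39.2 and 20.2 CPM (0.95). Capn3, Pou2f2 and Bmyc had log2 ratios of 0.76, 0.74 and 0.66. These 6 genes had intervals above 0 in 4 of 4 libraries. The share of all genes with such intervals was not counted. H2-Oa had 27.2 against 20.8 CPM (0.39) and was higher in 4 of 4 libraries, with 2 intervals above 0.

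Abcg1 and Zbtb20 differed from the rest. Abcg1 had 45.7 CPM with and 38.6 CPM without a Foxp3 UMI (0.25), which came mostly from germ-free Foxp3CNS1-, with 77.4 against 47.2 CPM and a ratio of 0.71 (0.41 to 1.004). In the other 3 libraries its ratio was 0.17, 0.14 and 0.06 with intervals that held 0. Zbtb20 had 60.2 CPM with and 61.8 CPM without (-0.04), and in germ-free Foxp3GFP its ratio was -0.28 (-0.56 to -0.02). The median over the 9 genes was 0.74, beside 0.05 for all genes.

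Within cluster 6 the same contrast was weaker. Its 448 cells with a Foxp3 UMI had a median of 3153 UMIs, against 2463 in the 1150 without. Gsto1 had 73.2 CPM with and 44.7 CPM without (0.71, 0.35 to 1.07), Gsta4 had 76.3 and 53.8 CPM (0.50, 0.16 to 0.84), and Bmyc had 176 and 147 CPM (0.26, 0.04 to 0.48). The intervals of the other 6 held 0, with Zbtb20 lowest at -0.25. Of the 9 genes 8 were higher, where 42.6% of 6865 genes were, and none was 2-fold higher, where 0.277% were. The Gsta4 ratio was 1.38 (0.71 to 2.05) in colonized Foxp3CNS1-, where cells with a Foxp3 UMI had 103 CPM against 39.5 without, and it was 0.37, 0.33 and -0.09 with intervals that held 0 in the other libraries. The median over the 9 genes was 0.52, 0.32 and 0.27 in the first 3 libraries, and -0.08 in germ-free Foxp3GFP. The medians of all genes were -0.02, -0.04, -0.03 and -0.02 in the same order. Of the 9 genes, 8, 6, 8 and 9 had at least 50 UMIs in these libraries.

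The contrast was also made in other clusters. The median over the 9 genes, of which 5 to 9 had at least 50 UMIs, was 1.20 in cluster 1, 0.92 in cluster 2 and 0.80 in cluster 4, where Foxp3 was at 17.5, 32.8 and 77.4 CPM over all cells. It was 0.05 in cluster 0 and -0.03 in cluster 3, where Foxp3 was at 138 and 240 CPM. In clusters 5, 7 and 8 it was 0.26, -0.02 and 0.32, with Foxp3 at 85.7, 65.0 and 40.3 CPM, so the median did not follow the Foxp3 level throughout.

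**Figure D3:**
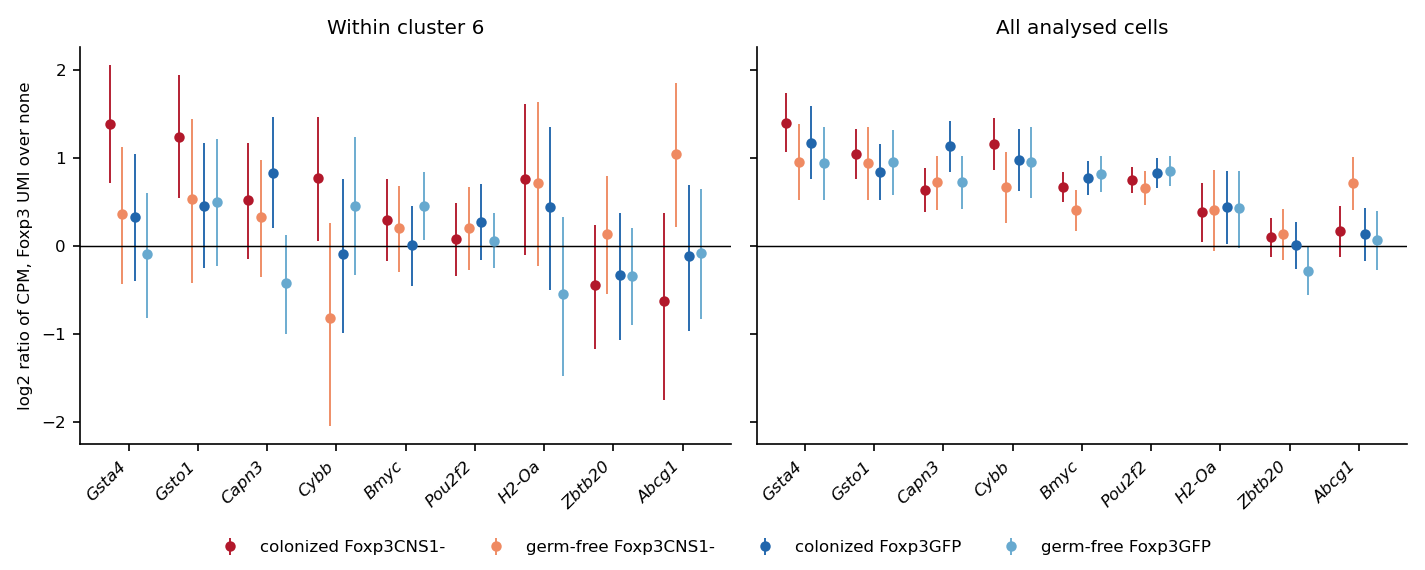
Log2 ratio of CPM in cells with a Foxp3 UMI over cells without one for the 9 genes, within cluster 6 (left) and over all analysed cells (right). Points are the 4 libraries with exact 95% intervals for counting error. Over all cells 6 genes lie above 0 in each library with intervals that do not reach it, and within cluster 6 most intervals cross 0.

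Inside cluster 6, cells with a Gsta4 UMI could be compared with the other cells of that cluster. There were 179 such cells, with a median of 3305 UMIs, against 1419 cells with a median of 2579. Gsto1 had 101 CPM in cells with Gsta4 and 47.1 CPM in cells without, a log2 ratio of 1.10 (0.68 to 1.51). Per library Gsto1 had 98.01, 70.4, 129 and 95.05 CPM in cells with Gsta4 in the order above, against 47.8, 44.3, 45.5 and 50.1 CPM in cells without. In each of the 4 libraries it was higher in the cells with Gsta4, with an interval that held 0 in germ-free Foxp3CNS1-. Bmyc had 253 against 141 CPM (0.84, 0.58 to 1.09), H2-Oa 59.8 against 37.5 (0.67), Capn3 120 against 77.1 (0.63) and Cybb 67.5 against 45.6 (0.56). Foxp3 itself had 175 against 127 CPM (0.46). Pou2f2, Zbtb20 and Abcg1 had ratios of 0.00, -0.08 and 0.21 with intervals that held 0. The depth of the cells differed with the group, and its part in these ratios was not tested. Only the members and Foxp3 were read in this contrast, so no median or share over all genes stands beside it. The members were also chosen together as leading genes of cluster 6, so these ratios are not independent of that choice.

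How far the levels of the 9 genes varied together across clusters and libraries differed by pair. Over the 40 sums of 10 clusters and 4 libraries, Cybb and Pou2f2 had a Pearson r of 0.90 on the log2(CPM + 1) scale, and Gsta4 and Gsto1 one of 0.88. Gsto1 had -0.01 with Cybb, -0.03 with Pou2f2 and -0.05 with H2-Oa. Cluster 9, the smallest, had 0 UMIs of both transferases. Without it, over 36 sums, Gsta4 and Gsto1 had r = 0.74, Gsta4 and Capn3 0.86, Gsta4 and Cybb 0.68 and Cybb and Pou2f2 0.91. All pairs among the 7 genes other than Zbtb20 and Abcg1 then lay between 0.43, for Gsto1 and H2-Oa, and 0.91. Zbtb20 and Abcg1 had 0.71 with each other but 0.28 and 0.24 with Gsta4, and -0.22 and -0.19 with Gsto1. The sums share libraries, depth and the genes that made the clusters, so these values describe the data only.

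The 10 genes whose pattern was most like the mean of the 9, over the 40 sums and among 8474 genes with at least 200 UMIs, were Nrp1, Tgfbr1, Ankrd55, Gbp2b, Il2rb, Lztfl1, Noxa1, Swap70, Izumo1r and Rln3, with r from 0.80 to 0.85. Nrp1 and Izumo1r, surface proteins of Treg cells, are on the Treg marker lists. Tgfbr1 encodes a TGF-beta receptor chain and Il2rb a chain of the IL-2 receptor. Unlike Gsta4, these genes were not highest in cluster 6: Nrp1 had 75.2 CPM in cluster 6, against 73.3 in cluster 0 and 79.3 in cluster 3, and Tgfbr1 had 98.03, against 72.4 and 133. Without cluster 9, Tgfbr1, Nrp1 and Izumo1r were the 3 of these 10 that were again among the 10 closest. Among genes outside the set, the one closest to Gsta4 alone over the 40 sums was Ncf1, a cytosolic subunit of the same oxidase as Cybb, with r = 0.89, and 0.80 without cluster 9. Ncf1 had 10.6 CPM in cluster 6, 5.53 in cluster 0 and 6.10 in cluster 3.

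Listed families and pathways around the members were read in the same contrast. Against clusters 0 and 3, no listed gene other than the members was 2-fold higher in cluster 6. Of 31 measured genes of glutathione and redox metabolism 9 were higher and the median log2 ratio was -0.14, beside 35.9% and -0.09 for all genes. Of these, 2 were 2-fold lower, where 1.25% of all genes were. Glrx, a glutaredoxin that reduces protein mixed disulfides with glutathione, fell to 82.7 CPM in cluster 6, against 173 in clusters 0 and 3 (-1.07, -1.23 to -0.92). Hmox1, the heme-degrading heme oxygenase, had 13 UMIs in cluster 6 against 79 in clusters 0 and 3, a ratio of -1.12 (-2.09 to -0.26).

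Of 6 other NADPH oxidase genes, Ncf1 alone was higher, at 10.6 against 5.72 CPM in clusters 0 and 3 (0.89, 0.35 to 1.42), and the median was -0.20. Of 7 calpain genes 1 was higher (median -0.13), and of 10 genes of the MYC and MAX network 4 were (-0.02). Myc had 37.6 CPM in cluster 6 against 29.4 in clusters 0 and 3 (0.35, 0.09 to 0.61). The 3 measured POU factors and coactivators, Pou2f1, Pou2af1 and Pou6f1, were higher (median 0.25), with intervals that held 0. Of 8 MHC class II genes 4 were higher (-0.03). H2-Ob, the partner chain of H2-Oa, had 32.6 CPM against 43.7 (-0.42, -0.68 to -0.17), so the 2 chains of the heterodimer differed in direction. Of 33 ZBTB factors 11 were higher (-0.11), and of 24 genes of sterol efflux and the liver X receptor 8 were (-0.07).

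The design also sets colonized against germ-free mice of the same strain. In cluster 6 of Foxp3CNS1- mice, 7 of 9 genes were lower in the colonized library, where 53.7% of 4779 genes were, and none passed 2-fold, where 1.38% did. Capn3 had 64.2 CPM in the colonized library, against 94.7 in the germ-free one (-0.56, -1.001 to -0.12). Bmyc had 129 against 175 CPM (-0.44, -0.75 to -0.13). Both intervals lay below 0. Zbtb20 had 71.6 against 96.8 CPM (-0.43, -0.86 to -0.01), and Abcg1 had 36.2 against 56.6 CPM (-0.65, -1.23 to -0.06), the largest ratio among the 9 genes here. The intervals of the other 5 held 0: Gsta4 had 59.0 against 69.0 CPM (-0.22), Pou2f2 173 against 184 (-0.09) and H2-Oa 37.6 against 46.3 (-0.30). Gsto1, at 54.6 against 47.4 CPM (0.21), and Cybb, at 54.6 against 49.4 CPM (0.14), were the only ones with a ratio above 0. The median over the 9 genes was -0.30, beside -0.03 for all genes. Thinning gave -0.92 for Capn3, -0.36 for Bmyc, -0.31 for Abcg1 and -0.12 for Zbtb20, so the sizes depend on it.

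In cluster 6 of Foxp3GFP mice, 8 of 9 genes were lower in the colonized library, where 52.1% of 4895 genes were, and none passed 2-fold, where 1.59% did. Pou2f2 came closest, with 155 CPM in the colonized library, against 297 in the germ-free one (-0.94, -1.20 to -0.69). Zbtb20 had 63.6 against 108 CPM (-0.76, -1.18 to -0.35). Capn3 had 72.4 against 104 CPM (-0.53, -0.93 to -0.13) and Bmyc 143 against 185 (-0.37, -0.66 to -0.08). For Capn3, Bmyc and Zbtb20, then, both strains had the colonized library lower with an interval below 0. The share of all genes for which this held was not counted. Among cluster 6 cells with a Foxp3 UMI, the Capn3 ratio in Foxp3GFP turned to 0.21 (-0.43 to 0.85). Gsta4 had 57.2 against 62.6 CPM (-0.13), Gsto1 58.0 against 56.2 (0.05), Cybb 41.9 against 48.1 (-0.20), H2-Oa 35.4 against 44.1 (-0.32) and Abcg1 46.7 against 57.8 (-0.31), with intervals that held 0. After thinning, the Gsta4 ratio turned to 0.31 and the Pou2f2 ratio was -0.72. The median over the 9 genes was -0.32, beside -0.02 for all genes.

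**Figure D4:**
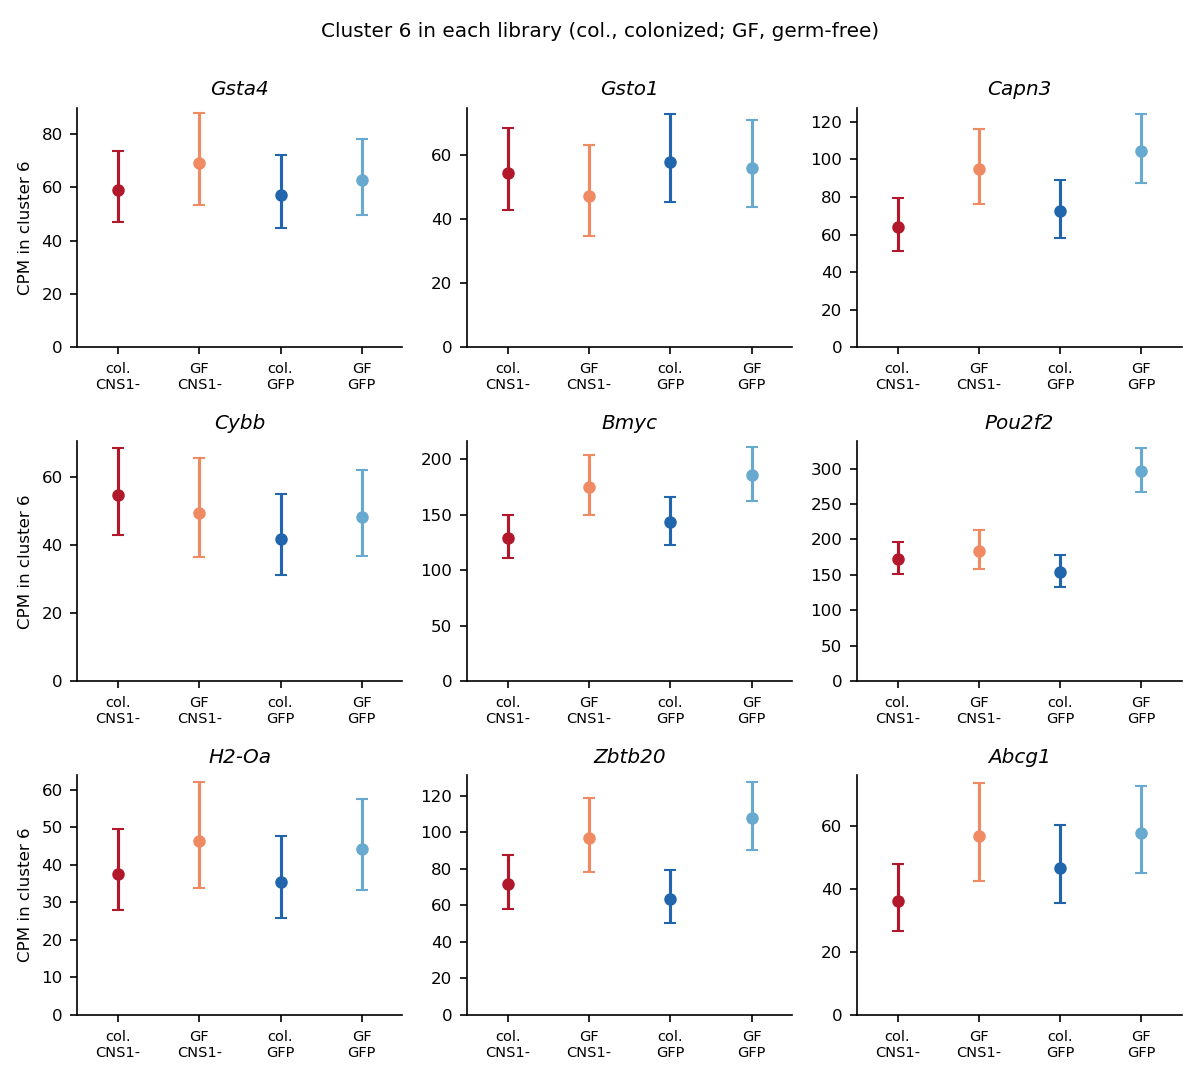
CPM of the 9 genes in cluster 6 of the 4 libraries, with exact 95% intervals. Capn3, Bmyc and Zbtb20 are lower in both colonized libraries than in the germ-free library of the same strain, Gsta4 lies between 57.2 and 69.0 CPM, and Pou2f2 stands apart at 297 CPM in germ-free Foxp3GFP.

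Differences in the same direction were present outside cluster 6. In the other 9 clusters together, 9 of 9 genes were lower in the colonized library of both strains, where 55.2% of genes were in Foxp3CNS1- and 51.1% in Foxp3GFP. In each strain 7 intervals lay below 0. The share of all genes with such an interval was not counted, so nothing is read from that number. The medians were -0.35 in Foxp3CNS1- and -0.37 in Foxp3GFP. Gsta4 had 14.1 CPM in colonized Foxp3CNS1-, against 18.2 in germ-free Foxp3CNS1- (-0.38, -0.68 to -0.07), and 11.2 against 16.7 CPM in Foxp3GFP mice (-0.58, -0.92 to -0.24). Abcg1 had 31.6 against 52.2 CPM in Foxp3CNS1- mice (-0.73), and Zbtb20 had 48.1 against 77.8 CPM in Foxp3GFP mice (-0.69). Gsto1 was the member nearest to 0, at -0.03 and -0.01. In such sums over many cell states, fewer cells of a type and less RNA of the gene per cell cannot be told apart.

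**Figure D5:**
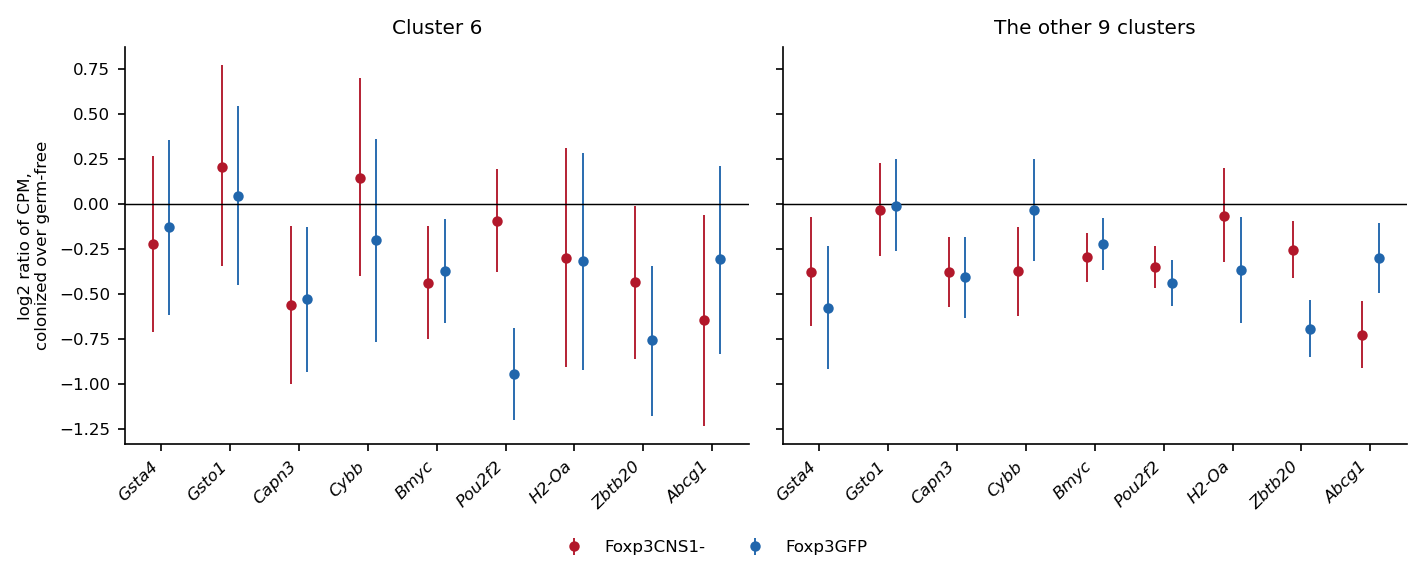
Log2 ratio of CPM in colonized over germ-free mice for the 9 genes, in cluster 6 (left) and in the other 9 clusters (right), for Foxp3CNS1- and Foxp3GFP mice with exact 95% intervals. In the other clusters all points lie below 0, and in cluster 6 Pou2f2 lies near 0 in Foxp3CNS1- and at -0.94 in Foxp3GFP.

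The same ratios were taken cluster by cluster for all 9 genes, and those of Pou2f2, Zbtb20 and Abcg1 are given first. In Foxp3GFP mice Pou2f2 was lower after colonization in 9 of 9 clusters with enough counts, with 7 intervals below 0, Zbtb20 in 8 of 8, with 6 below 0, and Abcg1 in 6 of 8, with 1 below 0. In Foxp3CNS1- mice Abcg1 was lower in 8 of 8 clusters, with 5 intervals below 0, Pou2f2 in 8 of 9, with 5, and Zbtb20 in 5 of 7, with 3. Capn3 was lower in 6 of 7 clusters in Foxp3GFP mice and in 6 of 6 in Foxp3CNS1- mice. In the same order of strains H2-Oa was lower in 4 of 4 and 4 of 5 clusters. Gsta4 was lower in 3 of 3 and 3 of 4, and Cybb in 3 of 4 and 4 of 5. Gsto1 was lower in 3 of 5 clusters in Foxp3GFP mice and in 3 of 6 in Foxp3CNS1- mice, where its highest ratio was 0.95. Bmyc in Foxp3GFP mice was lower in 8 of 9 clusters, with 5 intervals below 0 and 1 above 0. In Foxp3CNS1- mice Bmyc was lower in 7 of 9, with 5 intervals below 0. The same counts were not made over all genes. Among cells with a Foxp3 UMI in Foxp3CNS1- mice, Abcg1 fell to 35.0 CPM in colonized mice, against 77.4 in germ-free mice (-1.14, -1.51 to -0.78), the one ratio past 2-fold there, where 1.85% of 7199 genes were. In Foxp3GFP mice the same cells had 39.96 against 47.9 CPM (-0.26, -0.66 to 0.14). Each of these ratios rests on 1 library per side, so library and colonization cannot be told apart.

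The CNS1 deletion was compared in the same 4 libraries, so its ratios share libraries with those above. In cluster 6 of germ-free mice, 6 of 9 genes were lower in Foxp3CNS1- than in Foxp3GFP, where 41.6% of 4648 genes were, and none passed 2-fold, where 0.839% did. Only the Pou2f2 interval left out 0, with 184 CPM in germ-free Foxp3CNS1- against 297 in germ-free Foxp3GFP (-0.69, -0.95 to -0.43). Over all analysed cells Pou2f2 had 126 against 134 CPM (-0.10, -0.21 to 0.02). Gsta4 had 69.0 against 62.6 CPM in cluster 6 (0.14), and Cybb 49.4 against 48.1 (0.04). In the other 9 clusters, Cybb had 27.3 against 20.0 CPM (0.45, 0.17 to 0.73) and Capn3 43.5 against 35.5 (0.29, 0.08 to 0.51). Abcg1 had 52.2 against 44.6 CPM (0.23, 0.03 to 0.42) and Zbtb20 64.4 against 77.8 (-0.27, -0.44 to -0.11). These are the members whose intervals left out 0 there, 3 above and 1 below. The median over the 9 genes was 0.12, beside 0.05 for all genes. The share of all genes with such intervals was not counted, so nothing is read from that number.

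In cluster 6 of colonized mice the 9 genes were close between the strains. Of them 4 were lower in Foxp3CNS1-, where 42.0% of 4979 genes were, none passed 2-fold, where 0.522% did, and all 9 intervals held 0. The widest ratios were those of Cybb, with 54.6 CPM in colonized Foxp3CNS1- against 41.9 in colonized Foxp3GFP (0.38, -0.15 to 0.92), and Abcg1, with 36.2 against 46.7 (-0.37). Gsta4 had 59.0 against 57.2 CPM (0.05). In the other clusters H2-Oa had 21.5 against 16.2 CPM (0.42, 0.16 to 0.67), Capn3 33.4 against 26.7 (0.32, 0.12 to 0.52) and Gsta4 14.1 against 11.2 (0.32, 0.01 to 0.64). Pou2f2 and Zbtb20 were also higher there, at 0.16 and 0.17 with intervals above 0. Abcg1 was lower, with 31.6 against 36.2 CPM (-0.20, -0.39 to -0.01). The share of all genes with intervals that left out 0 was not counted here, so nothing is read from how many members had one. In these other clusters the median over the 9 genes was 0.16, beside 0.03 for all genes. In cluster 6 it was 0.05, beside 0.05 for all genes.

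Last, the colonization ratios of the strains were set against each other as a difference, Foxp3CNS1- minus Foxp3GFP, with an approximate 95% interval from the 4 counts. In cluster 6 the difference of Pou2f2 was 0.85 (0.47 to 1.22), since its ratio was -0.09 in Foxp3CNS1- and -0.94 in Foxp3GFP. This difference rested on the high germ-free Foxp3GFP library and was 0.40 after thinning, 0.36 over clusters 0, 3 and 6 (0.16 to 0.57) and 0.24 over all analysed cells (0.09 to 0.39). The other 8 intervals held 0 in cluster 6, from -0.34 for Abcg1 to 0.35 for Cybb, and 4 of 9 differences were below 0, where 49.9% of 4570 genes were. Over all analysed cells Zbtb20 differed by 0.42 (0.22 to 0.63), with the ratio further below 0 in Foxp3GFP, and Abcg1 by -0.41 (-0.66 to -0.16), with the ratio further below 0 in Foxp3CNS1-. Gsta4 differed by -0.09 in cluster 6 and 0.08 over all cells, with intervals that held 0.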

How the data were processed

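CD4 T cells of mesenteric lymph nodes were profiled by 10x 3′ v3 single-cell RNA sequencing, with about 5000 cells targeted per sample per the labels' protocols. The submitters' processing notes name Cell Ranger, Scanpy 1.5.1 and mm10. The role of each was not stated. The authors deposited whole-number UMI counts of 13314 genes in 17478 cells, with a cell table that gives cluster and subset names and marks 303 cells as removed. The 16948 listed cells that were not removed were analysed, and 227 cells with no line in that table were left out. In the cell table, 3 columns were not used. Doublets were not called here, and an earlier removal was not stated in the sources used here.

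UMIs were summed per library, cluster, subset or Foxp3 state and scaled to CPM of the summed UMIs. Levels have exact Poisson 95% intervals, ratios exact binomial ones, and differences of ratios approximate ones. All of them cover counting error only. Each group holds 1 library, so no comparison of groups has a replicate. A fit of strain and colonization as additive terms was not run, and no p-value was computed. A gene was called when its ratio reached 2-fold with at least 50 UMIs over both sides. For shares of cells with a UMI, each cell was thinned to 1500 UMIs. Likeness of pattern was Pearson's r of log2(CPM + 1) over 40 sums of cluster and library.

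The members and lists were chosen with earlier results of these data known. The text names the members, the 10 genes closest to them in pattern, and listed pathway genes past 2-fold. Ncf1, Myc and H2-Ob were named after their values were seen. Gene positions are from GENCODE vM21 and promoter windows from RefSeq GRCm38.p6. Python 3.11.15, numpy 2.4.6, scipy 1.17.1, pandas 2.3.3 and matplotlib 3.10.9 were used. The scripts were tested on simulated data. Alternatives changed the depth, the weight of a cell, the cells summed, the scaling total, the filter on low counts and the libraries pooled.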

Additional observations from a re-analysis of the deposited data

Results flagged for a closer look

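Cybb, the catalytic subunit of the phagocyte NADPH oxidase, had colonization ratios of opposite sign in cluster 6 of the 2 genotypes. The log2 ratio of colonized over germ-free was 0.14 in Foxp3CNS1- and −0.20 in Foxp3GFP. The difference of these log2 ratios was 0.35 (counting interval −0.40 to 1.10). It was not tested, because each group holds 1 library, and the interval holds 0. Over all analysed cells the ratios were −0.33 in Foxp3CNS1- and −0.11 in Foxp3GFP, a difference of −0.22 (−0.55 to 0.11). In cluster 6 cells with a Foxp3 UMI they were 1.25 in Foxp3CNS1-, from 32 colonized and 9 germ-free UMIs, and −0.53 in Foxp3GFP, from 19 colonized and 27 germ-free UMIs. The difference there was 1.78 (0.42 to 3.14), on ratios that miss the minimum of 50 UMIs.

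The 303 cells that the authors removed enter no comparison, and 2 members had an interval there wholly above that of cluster 6. Pou2f2, at 206 against 202 CPM, and Zbtb20, at 85.4 against 83.9 CPM, were slightly higher there with overlapping intervals. Cybb had 88.9 CPM in the removed cells (interval 70.2 to 111), against 48.6 CPM in cluster 6. H2-Oa, a subunit of the MHC class II peptide-loading regulator H2-O, had 194 CPM in the removed cells (interval 166 to 226), against 40.5 CPM in cluster 6. Gsta4 had 6.93 CPM in the removed cells. Summed over its genes, the B cell list had 5166 CPM in the removed cells and 996 CPM in cluster 6, and the macrophage list had 984 CPM in the removed cells and 433 CPM in cluster 6. The part of these lists in the levels of Cybb and H2-Oa was not tested.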

How the results depend on the processing

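Of the summary values under the alternatives, 196 stayed within the limits set for them and 14 moved. The median over the members for the CNS1 deletion in germ-free mice changed sign, from -0.08 in cluster 6 to 0.09 over all analysed cells. Of the values for single genes, 844 stayed and 55 moved. Signs near 0 could turn: the colonization ratio kept its sign in 6 of 13 alternatives for Gsto1 in Foxp3GFP, and in 8 of 13 for Cybb in Foxp3CNS1-. With cluster 6 cells that hold a Foxp3 UMI, 5 members were lower with colonization in Foxp3GFP (8 in all cluster 6 cells), and 2 were lower in Foxp3CNS1- than in Foxp3GFP among colonized libraries (4 in all cluster 6 cells). With all analysed cells, 2 were lower in that colonized comparison, and 3 in the germ-free one (6 in cluster 6). With all cells that hold a Foxp3 UMI, 3 were also lower in the germ-free comparison. The difference of the colonization ratios between genotypes was below 0 for 4 members in cluster 6, and for 2 after thinning, 2 in clusters 0, 3 and 6, and 2 in all cells with a Foxp3 UMI. The median log2 ratio of cells with against without a Foxp3 UMI was 0.74. It was 0.84 without cells of 10 or more immunoglobulin UMIs and 0.25 within cluster 6. Leaving out each library in turn gave medians of 0.67 to 0.78, with 0 to 1 members lower (0 without the germ-free Foxp3GFP library). Of the 10 genes closest in pattern, 3 were shared when 10 pooled sums were used and 3 without cluster 9. Against all other cells, 6 listed pathway genes were 2-fold or more apart from cluster 6. Alternatives without shared barcodes, without cells holding B cell or myeloid transcripts, without heat shock transcripts and without cluster 9 were chosen after seeing the data.

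No paired analysis was possible because the labels carry no replicate numbers and each comparison sets 1 library against 1. Without a second library per group, differences between libraries and between conditions cannot be told apart.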
